A study of Homo sapiens with 6 samples.

Results

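The MiT/TFE transcription factors and the folliculin-Rag proteins were followed here in nascent RNA of A375 cells, a human melanoma line. The folliculin-Rag proteins hold TFEB and TFE3 in check. The 10 genes were taken by symbol as the 4 factors MITF, TFEB, TFE3 and TFEC, the folliculin complex FLCN, FNIP1 and FNIP2, and the Rag GTPases RRAGA, RRAGC and RRAGD. Each symbol matched 1 of the 58243 gene identifiers counted, and all 10 were among the 23884 genes that passed the filter on low counts. Both groups were A375 cells kept under hygromycin B at 100 µg/ml after stable transfection, one with an empty vector (EV) and the other with a plasmid for human HA-tagged PRL3. PRL3 is a phosphatase encoded by PTP4A3. Each group had 3 libraries, named B1, B2 and B3 for EV and B9, B10 and B11 for PRL3. The sources used here do not say whether the libraries came from separate cultures or whether each line was 1 clone, so p-values measure only the spread between these libraries. In 4sU-seq, cells take up the uridine analogue 4-thiouridine, here at 500 µM for 20 min, and the RNA made during that pulse is pulled out and sequenced. The counts used here are of reads on exons. The study moved to reads on introns to remove possible effects of splicing during transcription or of mRNA carried over. Such effects are not removed from the exon counts, so levels here are not rates of transcription.

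MITF, TFEB, TFE3 and TFEC are closely related proteins that bind DNA as dimers with each other. MITF is the lineage factor of melanocytes and of most melanomas, whereas TFEB and TFE3 are best known as activators of lysosome and autophagy genes. On the lysosome, RagA or RagB pairs with RagC or RagD. In the amino acid-fed state the pair binds TFEB and TFE3 and brings them to the kinase mTORC1. This kinase phosphorylates TFEB and TFE3 and keeps them in the cytoplasm. FLCN, with FNIP1 or FNIP2, is the GTPase-activating complex for RagC and RagD. FLCN is the gene mutated in Birt-Hogg-Dubé syndrome. The FNIP2 and RRAGD genes, like FLCN, have been described as targets of the same factors, so that the group forms a loop.

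Between 36532207 and 57952035 reads were counted on genes per library. The transfected gene checks the labels, and PTP4A3 had 161, 212 and 279 normalized counts in the EV libraries and 22328, 28767 and 22065 in the PRL3 libraries. Normalized counts are counts scaled to the mean effective library size after TMM normalization. Reads that fell outside annotated exons were 28.7% to 41.07% of the uniquely aligned reads in EV libraries and 62.81% to 69.06% in PRL3 libraries, so the groups differed in more than PTP4A3. These counts hold no measure of RNA per cell, so less RNA of a gene per cell and fewer cells that make it cannot be told apart. A375 was checked against markers of melanocytes, and SOX10, a transcription factor of the lineage, had 9882 to 23575 reads in every library, whereas the pigment genes MLANA and TYR had at most 2 and 1 reads. The 7 melanocyte markers summed to between 24040 and 34104 normalized counts in EV libraries and between 13597 and 17427 in PRL3 libraries. SOX10 made up most of this sum, with 18852 to 28364 normalized counts in EV libraries and 10593 to 13992 in PRL3 libraries. In the same list PAX3 rose (log2 fold change 0.67, adjusted p = 0.0035) and PMEL was not called (log2 fold change -0.33, adjusted p = 0.664). S100B (log2 fold change -1.38, adjusted p = 3.12e-05) and S100A1 (-2.60, adjusted p = 2.55e-05) fell, as did SOX10 (-0.85, adjusted p = 0.00213). For 4 markers of dedifferentiated melanoma the sums were 18954 to 20740 and 13781 to 15401, and for 3 keratinocyte markers 3449 to 4382 and 831 to 1174. AXL made up most of the first sum, with 17431 to 19143 normalized counts in EV and 12711 to 14176 in PRL3 libraries. AXL, NGFR and SOX9 of that list fell, and EGFR was not called (log2 fold change 0.086, adjusted p = 0.716). The keratinocyte sum came from KRT10 and KRT14, and KRT5 had at most 4 reads. Leukocyte markers reached at most 12 reads in any library, while the 3 endothelial markers summed to 60.9 to 115 normalized counts in EV libraries and 77.2 to 120 in PRL3 libraries, and the 3 fibroblast markers to 216 to 332 and 225 to 284. The part of these marker levels in the results on the members was not tested.

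All 3 genes of the folliculin complex were higher in PRL3 cells, and TFE3 and all 3 Rag genes were lower. RRAGA, which fell 2.62-fold, had the largest difference of the 10 members with TMM scaling, and FNIP1 had the largest rise. MITF was above EV in each PRL3 library but missed the threshold, and TFEB and TFEC overlapped between the groups. The test was edgeR's quasi-likelihood F test, with p values adjusted by Benjamini-Hochberg over all 23884 genes and a threshold of 0.05. It called 3 members higher, and over all genes tested 20.0% were called higher (15.2% of the protein-coding genes). It called 4 members lower, and 22.7% of all genes were called lower (31.6% of the protein-coding genes). The PRL3 libraries lay wholly above the EV libraries for 4 members, against 29.7% of all genes, and wholly below for 4, against 26.6%. Calls of either direction were common in these libraries, so with 10 members these counts are no result about the group as a whole. The median log2 fold change was -0.27 for the 10 members, all of them protein-coding, -0.15 for the 14443 protein-coding genes tested and 0.11 for all genes tested.

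**Figure D1:**
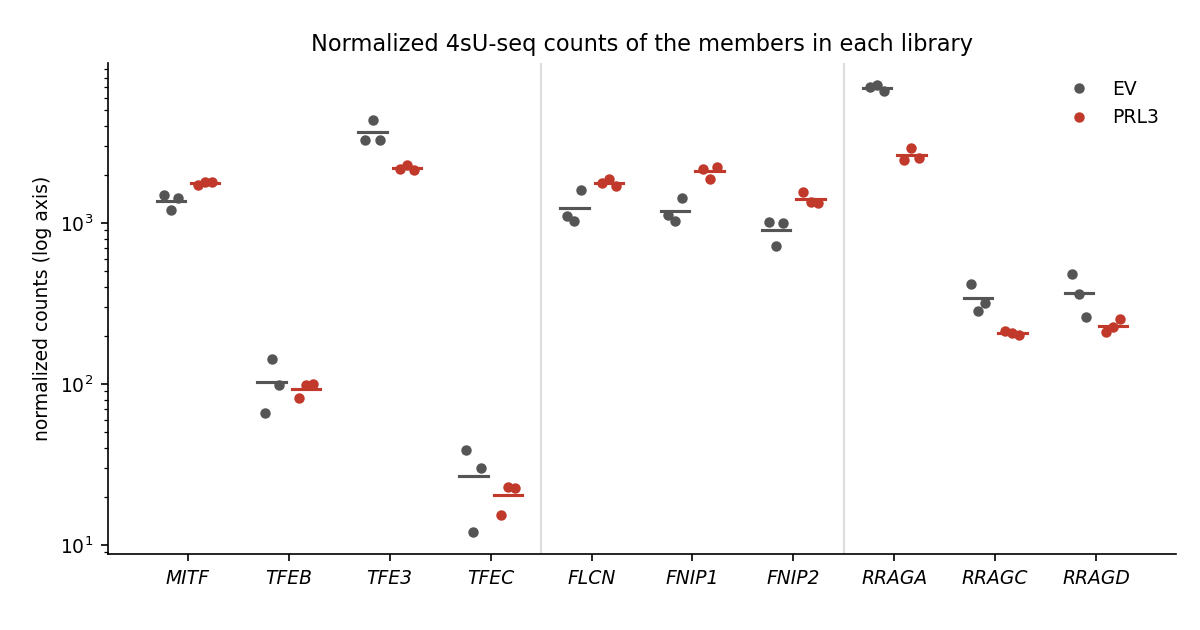
Normalized 4sU-seq counts on a log axis for the 10 members, with 1 point for each of the 3 EV (grey) and 3 PRL3 (red) libraries and a bar at each group mean. The groups are apart for MITF, FLCN, FNIP1 and FNIP2, with PRL3 above, and for TFE3, RRAGA, RRAGC and RRAGD, with PRL3 below, and they overlap for TFEB and TFEC.

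Among the 4 factors, TFE3 had the highest level per kilobase of exon in A375 cells, and MITF came next. Levels between genes were compared as RPKM, the reads per kilobase of annotated exon scaled to the effective library size. In EV cells the level of TFE3 was 18.4 ± 3.17 (SD, n = 3), at percentile 81.6 of the protein-coding genes tested. MITF had a level of 3.94 ± 0.43 (SD, n = 3), at percentile 46.8 and just below the median level of 4.54. TFEB, at 0.323 ± 0.12 (SD, n = 3), and TFEC, at 0.0663 ± 0.034 (SD, n = 3), were at percentiles 13.7 and 4.02. The EV ranges of neighbours among these 4 factors did not overlap. Counts per gene do not tell the isoforms of MITF apart, so the melanocyte form was not measured separately.

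TFE3 lies on chromosome X from 49028726 to 49043410 (GRCh38) and had 3280, 4373 and 3294 normalized counts in the EV libraries and 2157, 2289 and 2133 in the PRL3 libraries. Every PRL3 library was below the lowest EV library, and library B2 was the highest of EV. The log2 fold change was -0.73 (SE 0.16, adjusted p = 0.0023). It passed the threshold without each library in turn, but not with library size alone as the scaling, where it was -0.24.

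MITF, on chromosome 3 from 69739456 to 69968336, had 1492, 1208 and 1433 normalized counts in EV libraries and 1714, 1795 and 1809 in PRL3 libraries. The groups did not overlap, and the PRL3 libraries were closer together than the EV libraries. The log2 fold change was 0.36 (SE 0.15, 95% confidence interval 0.031 to 0.70, adjusted p = 0.0738), and the gap to the median of all genes was 0.25. That gap was 0.13 with DESeq2 and 0.51 when only protein-coding genes were fitted. The median is over the genes of each fit: 23884 in the main fit, 38251 with DESeq2 and 14443 protein-coding genes. In the main fit the protein-coding genes alone had a median of -0.15. These gaps are therefore not measured from the same set of genes. Leaving out EV library B1 brought the log2 fold change to 0.43 and past the threshold (adjusted p = 0.0351). Taking all uniquely aligned reads as the library size turned the log2 fold change to -0.11, while the gap to the median was 0.25.

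TFEB lies on chromosome 6 from 41683978 to 41736259. It had 65.8, 143 and 98.2 normalized counts in EV libraries and 81.3, 99.0 and 99.7 in PRL3 libraries. The PRL3 values sat inside the EV range. The log2 fold change was -0.13 (SE 0.37, 95% confidence interval -0.93 to 0.66, adjusted p = 0.802), an interval wide enough to hold a change of the size seen for TFE3, and it turned to 0.20 without EV library B2. TFEC, on chromosome 7 from 115935148 to 116159896 and known mainly from macrophages, had 32, 10 and 33 reads in EV libraries and 15, 31 and 21 in PRL3 libraries. The groups overlapped, and at 10 to 33 reads per library a difference was not detectable at this depth (log2 fold change -0.41, SE 0.68, adjusted p = 0.667). The log2 fold change of TFEC was -0.047 without EV library B1 and -0.74 without EV library B2.

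Within a library, the balance between the factors does not depend on how libraries are scaled to each other. MITF made up 20.2%, 13.3% and 19.4% of the summed level of the 4 factors in the EV libraries and 30.5%, 30.1% and 31.7% in the PRL3 libraries. TFE3 made up 78.4%, 84.9% and 78.8% in EV libraries and 67.7%, 67.7% and 66.0% in PRL3 libraries. Neither share overlapped between the groups, whereas TFEB moved from 1.40% ± 0.38 to 1.79% ± 0.17 and TFEC from 0.305% ± 0.17 to 0.302% ± 0.058 (SD, n = 3 in each group). The difference in the MITF share was 13.1 percentage points and that in the TFE3 share -13.5 (exact permutation test, two-sided p = 0.1 for each, the smallest p that 3 libraries against 3 allow, and adjusted p = 0.2 over the 4 shares). The ratio of MITF to TFE3 was 0.215 in EV and 0.459 in PRL3 cells, 2.13-fold higher (log2 difference 1.09, exact permutation p = 0.1, adjusted p = 0.2 over 6 ratios). The log2 ratio of TFEB to TFE3 was -6.32, -5.61 and -5.74 in EV libraries and -5.41, -5.21 and -5.10 in PRL3 libraries. It was 1.57-fold higher in PRL3, also with no overlap (exact permutation p = 0.1, adjusted p = 0.2 over 6 ratios). TFEB had only 54 to 133 reads per library. TFE3 stayed above MITF in all 6 libraries. With TFEB at most 1.93% and TFEC at most 0.453%, the MITF and TFE3 shares nearly mirror each other and are not separate differences. The summed level itself, with TMM scaling, was 21.1, 26.0 and 21.1 in EV libraries and 16.1, 17.1 and 16.3 in PRL3 libraries. The higher MITF share and both ratios to TFE3 thus hold the fall of TFE3, and neither MITF nor TFEB alone was called.

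**Figure D2:**
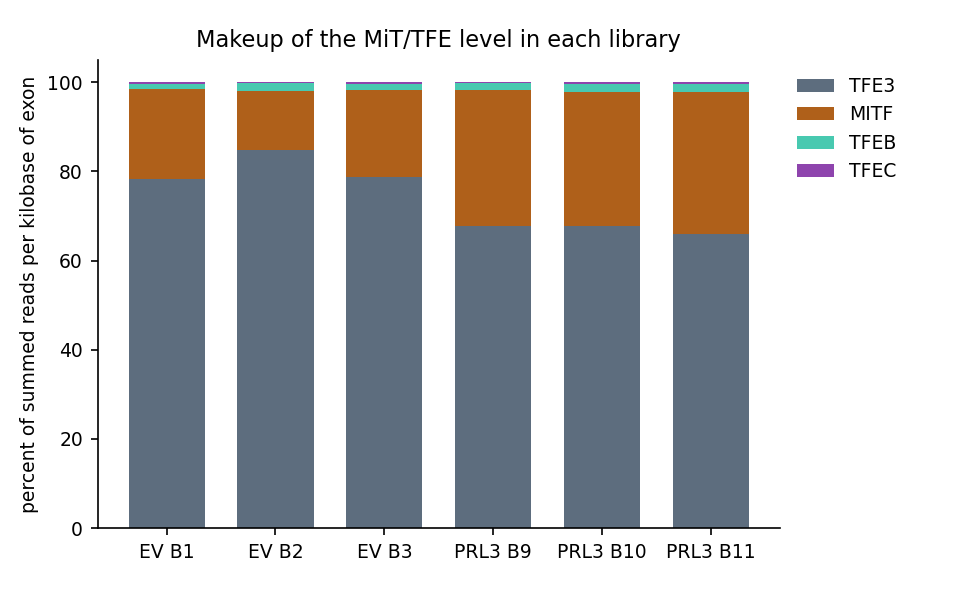
Stacked bars give, for each of the 6 libraries, the percent of the summed reads per kilobase of exon of TFE3, MITF, TFEB and TFEC that each gene took. TFE3 takes 78.4% to 84.9% in the EV libraries and 66.0% to 67.7% in the PRL3 libraries, and MITF takes 13.3% to 20.2% and 30.1% to 31.7%.

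The 3 genes of the folliculin complex rose in PRL3 cells. FNIP1, on chromosome 5 from 131641714 to 131797017, had 1119, 1025 and 1419 normalized counts in EV libraries and 2152, 1875 and 2240 in PRL3 libraries. The lowest PRL3 library was well above the highest EV library. This was a log2 fold change of 0.81 (SE 0.17, adjusted p = 0.0019), and it passed the threshold without each library in turn. FNIP2, on chromosome 4 from 158769026 to 158908050, had 1012, 722 and 997 normalized counts in EV libraries and 1554, 1354 and 1336 in PRL3 libraries, again with no overlap. Its log2 fold change was 0.64 (SE 0.18, adjusted p = 0.0115), and without PRL3 library B9 it was 0.57 and missed the threshold (adjusted p = 0.0576).

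FLCN, on chromosome 17 from 17212212 to 17237188, had 1106, 1029 and 1592 normalized counts in EV libraries and 1766, 1871 and 1687 in PRL3 libraries. EV library B3 was close to the PRL3 libraries, and the other EV libraries were well below. The log2 fold change was 0.51 (SE 0.18, adjusted p = 0.0378). This call held in only 1 of the 6 fits that left out a library: without EV library B3 the log2 fold change was 0.73 (adjusted p = 0.0044), and without any other library it was between 0.41 and 0.56 with adjusted p from 0.0678 to 0.119. The adjusted p values were 0.0678 without B1, 0.0967 without B2, 0.0909 without B9, 0.119 without B10 and 0.0776 without B11. When all uniquely aligned reads were taken as the library size, the log2 fold changes of FNIP1, FNIP2 and FLCN stayed positive but missed the threshold, at 0.34, 0.16 and 0.050.

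The proportions within the complex overlapped between the groups. The log2 ratio of FNIP2 to FNIP1 was -0.86 ± 0.21 (SD, n = 3) in EV and -1.04 ± 0.16 (SD, n = 3) in PRL3 libraries (exact permutation p = 0.6), and that of FLCN to FNIP1 was -0.26 ± 0.10 and -0.54 ± 0.21 (SD, n = 3 each, exact permutation p = 0.2). With 3 libraries a group, neither p shows that the proportions stayed the same. In EV cells the level per kilobase was 3.19 ± 0.55 for FNIP1, 2.70 ± 0.66 for FLCN and 1.76 ± 0.32 for FNIP2 (SD, n = 3 each). FNIP1 overlapped FLCN in its range over libraries, and FLCN did not overlap FNIP2. With the longest transcript as the length, FLCN came to 7.19 and moved ahead of MITF and FNIP1.

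The counting leaves out reads that overlap 2 genes, which touched FLCN, RRAGC and FNIP1. Of the bases of the FLCN canonical transcript, 31.2% are shared on the same strand with ENSG00000264187, a gene model that runs through FLCN. That model had 14, 29 and 32 reads in EV libraries and 78, 150 and 103 in PRL3 libraries (log2 fold change 1.89, SE 0.44, adjusted p = 0.00365). The lncRNA ENSG00000266498, inside the FLCN span on the same strand and without exon overlap, rose as well, from 59, 56 and 177 reads to 194, 414 and 243 (log2 fold change 1.35, SE 0.36, adjusted p = 0.00872). RNA of FLCN introns on this strand would also be counted on ENSG00000266498. MPRIP, which runs into FLCN on the opposite strand, had a log2 fold change of 0.024 (SE 0.15, adjusted p = 0.913). Of the RRAGC canonical transcript 44.1% is shared with ENSG00000273637, and of that of FNIP1 4.28% with ENSG00000273217, and both of these models had 0 reads in all 6 libraries. Reads set aside as ambiguous were 6.53%, 7.02% and 7.57% of the reads on exons in the EV libraries and 5.40%, 6.82% and 6.75% in the PRL3 libraries, and these ranges overlapped. The reads lost to each gene were not counted, so the values of FLCN and RRAGC leave out an unknown number of reads. Without these 2 genes, 2 members were called higher and 3 lower.

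RRAGA, on chromosome 9 from 19049427 to 19051025, had the highest level per kilobase of exon of the members, and all 3 Rag genes of the group fell. RRAGA had 7011, 7160 and 6594 normalized counts in EV libraries and 2459, 2934 and 2532 in PRL3 libraries. The groups were far apart, with little spread in either. This gave a log2 fold change of -1.39 (SE 0.15, adjusted p = 1.64e-05), and it passed the threshold in all 15 alternatives. Its level per kilobase in EV was 91.9 ± 3.89 (SD, n = 3), at percentile 96.6 of protein-coding genes, and 35.1 ± 3.40 (SD, n = 3) in PRL3 cells, where it was still the highest of the members.

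RRAGC lies on chromosome 1 from 38838198 to 38859772. It had 417, 284 and 320 normalized counts in EV libraries and 213, 207 and 203 in PRL3 libraries. The PRL3 libraries were nearly equal and all lay below EV. The log2 fold change was -0.71 (SE 0.24, adjusted p = 0.0283). RRAGD, on chromosome 6 from 89364616 to 89412273, had 483, 363 and 261 normalized counts in EV libraries and 209, 225 and 254 in PRL3 libraries. EV library B3, at 261, was only just above PRL3 library B11, at 254. RRAGD had a log2 fold change of -0.68 (SE 0.26, adjusted p = 0.0492).

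Both of these calls were lost in most fits that left out a library. RRAGC stayed past the threshold without EV library B2 or B3, and missed it without B1 (log2 fold change -0.54, adjusted p = 0.0887), B9 (adjusted p = 0.0811), B10 (adjusted p = 0.0968) or B11 (adjusted p = 0.106). RRAGD stayed past it without B3 (log2 fold change -0.89, adjusted p = 0.0076), and missed it without B1 (log2 fold change -0.45, adjusted p = 0.189), B2 (adjusted p = 0.0838), B9 (adjusted p = 0.162), B10 (adjusted p = 0.139) or B11 (adjusted p = 0.0977). With library size alone as the scaling their log2 fold changes were -0.22 and -0.18 and neither was called. In EV cells their levels per kilobase were 1.41 ± 0.28 for RRAGC and 1.54 ± 0.46 for RRAGD (SD, n = 3 each), with overlapping ranges. The order depended on the length used. With the longest transcript RRAGC was at 2.69 and RRAGD at 1.59. With only exon bases that no other counted gene shares they were at 1.84 and 1.54. The log2 ratio of RRAGD to RRAGC was 0.098 ± 0.34 in EV and 0.15 ± 0.18 in PRL3 libraries (SD, n = 3 each, exact permutation p = 0.9).

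RRAGB, the paralog of RRAGA, is no member of the group. It had 810, 665 and 1005 normalized counts in EV libraries and 865, 855 and 875 in PRL3 libraries. The PRL3 values lay inside the EV range, with a log2 fold change of 0.064 (SE 0.19, adjusted p = 0.81). With library size alone it was 0.55 and called higher (adjusted p = 0.0376), and with all uniquely aligned reads it was -0.40. Over the 15 alternatives its adjusted p ran from 0.0376 to 0.908. In EV cells the level per kilobase of RRAGA was 14.4 times that of RRAGB, and in PRL3 cells 5.17 times. The log2 ratio of RRAGA to RRAGB was 3.88, 4.19 and 3.48 in EV libraries and 2.27, 2.54 and 2.30 in PRL3 libraries, a difference of -1.48 with no overlap (exact permutation p = 0.1, adjusted p = 0.2 over 6 ratios). This ratio, too, is free of the scaling between libraries.

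The direction of the 7 called members was the same in all 15 alternatives, including every scaling and each library left out. Over these 15 alternatives the adjusted p ran from 7.00e-05 to 0.207 for TFE3, 3.14e-05 to 0.126 for FNIP1, 0.00040 to 0.521 for FNIP2, 0.00118 to 0.855 for FLCN, 0.000967 to 0.491 for RRAGC and 0.00236 to 0.580 for RRAGD, and it was from 0.000785 to 0.634 for MITF. The scaling set how far they lay from 0: the all-gene median log2 fold change was 0.11 under TMM, 0.60 under library size alone and -0.36 with all uniquely aligned reads. A scaling shifts the log2 fold changes of all genes and their median by nearly the same amount. A gap to the median that stays the same among scalings is therefore no check of the members. Measured from that median, the members hardly moved among the scalings within edgeR. RRAGA lay at -1.50 from it in each, FNIP1 lay 0.70 to 0.71 above it, FNIP2 0.52 to 0.53 above it, FLCN 0.39 to 0.41 above it and MITF 0.25 to 0.26 above it, and TFE3 lay between -0.85 and -0.84, RRAGC between -0.83 and -0.82 and RRAGD between -0.81 and -0.78. Over all 15 alternatives the gap ran from -1.62 to -1.24 for RRAGA, -0.97 to -0.58 for TFE3, -0.94 to -0.56 for RRAGC and -1.03 to -0.53 for RRAGD. It ran from 0.58 to 0.96 for FNIP1, 0.40 to 0.79 for FNIP2, 0.28 to 0.66 for FLCN and 0.13 to 0.51 for MITF. The genes behind the median numbered from 14443 (protein-coding genes only) to 38254 (no low-count filter) among these alternatives. These ranges therefore mix a change of the reference set with any change of the members.

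**Figure D3:**
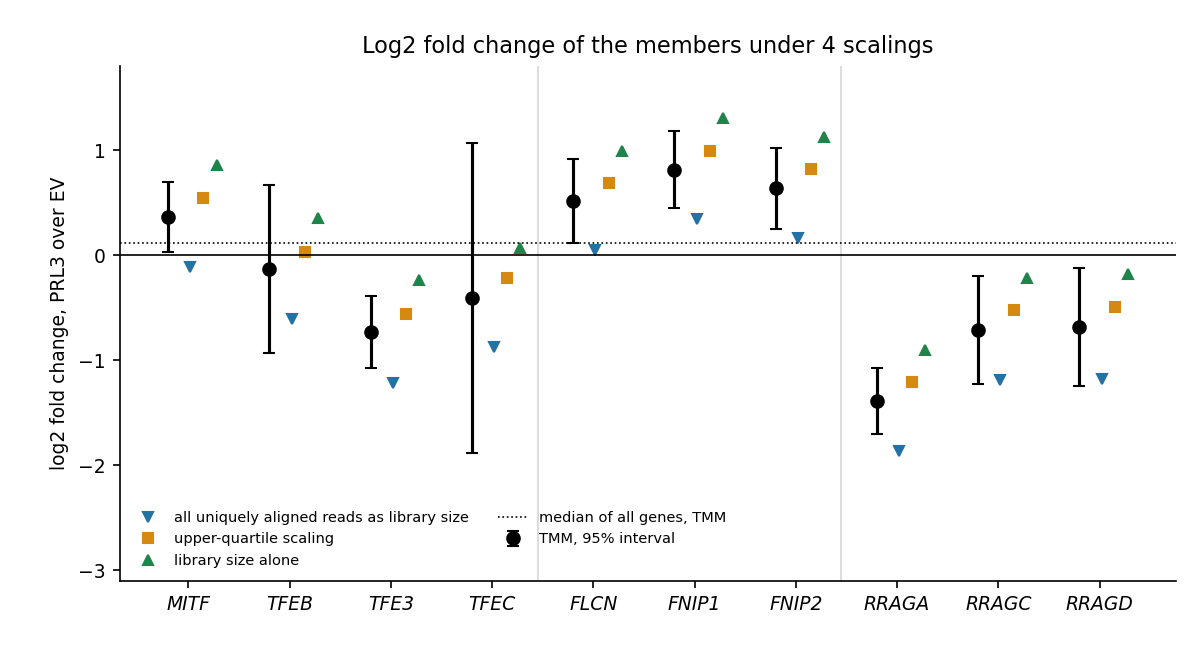
Log2 fold change of PRL3 over EV for the 10 members, with black points and 95% confidence intervals for TMM scaling and coloured marks for 3 other scalings, and a dotted line at the median of all genes under TMM, 0.11. The 3 folliculin genes stay above 0 and TFE3 and the 3 Rag genes below 0 under all 4 scalings, whereas MITF falls to -0.11 with all uniquely aligned reads and TFEB and TFEC rise above 0 with library size alone.

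The members differ widely in genomic span, which the choice of genes did not use. MITF spans 229 kb, TFEC 225 kb, FNIP1 155 kb and FNIP2 139 kb, whereas TFEB spans 52.3 kb, RRAGD 47.7 kb, FLCN 25.0 kb, RRAGC 21.6 kb, TFE3 14.7 kb and RRAGA, a gene of 1 exon, 1.60 kb. Span moved with the fold change over all protein-coding genes tested, and this comparison was added after the values had been seen. The median log2 fold change was -0.64 for the 2782 genes under 10 kb, -0.26 for the 6071 genes of 10 to 50 kb, -0.047 for the 2526 genes of 50 to 100 kb, 0.089 for the 2182 genes of 100 to 250 kb and 0.29 for the 882 longer genes. Against genes of their own span range, RRAGA lay at percentile 23.5, TFE3 at 29.2, RRAGC at 30.3 and RRAGD at 31.7, while FLCN lay at 82.1, FNIP1 at 87.4, FNIP2 at 81.3 and MITF at 68.3. The differences of the lower members from the median of their range were -0.75 for RRAGA, -0.47 for TFE3, -0.45 for RRAGC and -0.42 for RRAGD, and those of the higher members were 0.78 for FLCN, 0.72 for FNIP1 and 0.55 for FNIP2. The part of span in the differences between the groups was not tested further. The ratios set genes of unlike span ranges against each other: MITF (range median 0.089) and TFEB (-0.047) against TFE3 (-0.26). RRAGA (-0.64) was likewise set against RRAGB (-0.26). The part of span in these ratios and in the MiT/TFE shares was not tested. The 424 protein-coding genes with 1 exon in the canonical transcript, taken after the values had been seen and not matched for span or level, had a median log2 fold change of 0.020, 24.1% of them were called lower, and 8.02% were below RRAGA. The part of exon number in the fall of RRAGA was not tested.

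**Figure D4:**
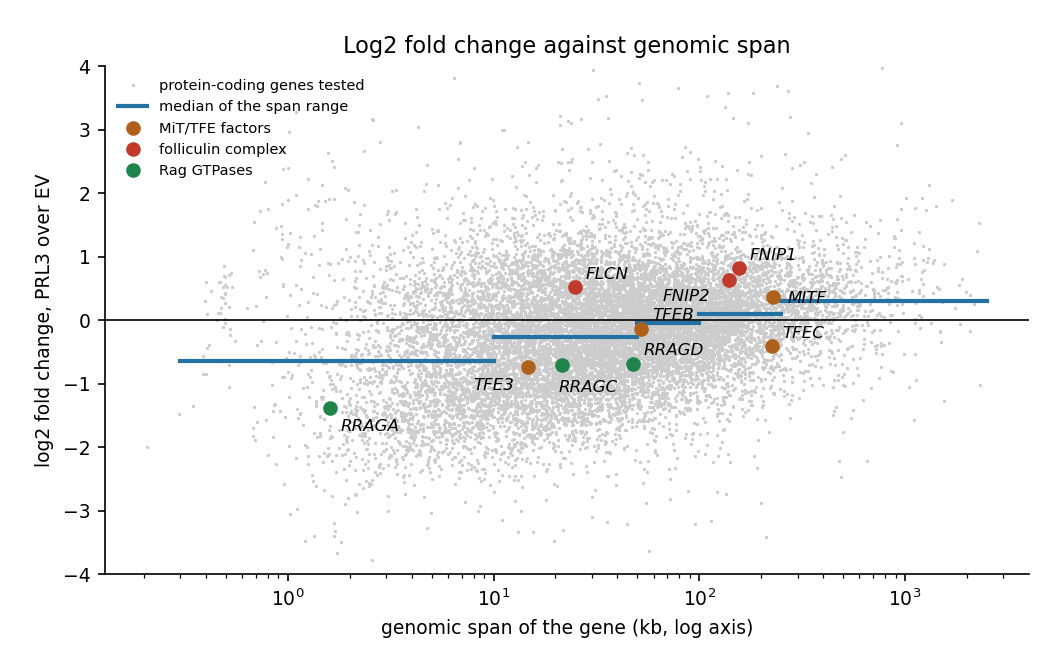
Log2 fold change of PRL3 over EV against genomic span in kb on a log axis, with grey points for protein-coding genes tested (28 genes beyond a log2 fold change of 4 in either direction are not drawn), blue lines at the median of each span range, and coloured points for the 10 members. The medians climb from -0.64 under 10 kb to 0.29 at 250 kb and more, and FLCN, at 25.0 kb, lies 0.78 above the median of its range.

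The binding sites of the factors were looked for in the starts of the members, since FLCN, FNIP2 and RRAGD are described as their targets. RefSeq promoter windows (GRCh38.p14, from 250 bases before to 50 after a start) were at hand for 8 members, 14 windows in all, and RRAGA and RRAGD had none in the table. The E-box CACGTG, searched on both strands, was found in the windows of FNIP1 and RRAGC and in 7.26% of all 35116 windows. The 8-letter core of the CLEAR element, TCACGTGA, which contains the E-box, was in none of the member windows and in 0.980% of all windows. The M-box TCATGTG was in 1 member window, at a second start of FNIP2, and in 2.92% of all windows. The 30-base stretches around these sites are shown 5′ to 3′ on the strand of the gene because FNIP1 rose and RRAGC fell with the same 6 letters near their starts, with the motif in capitals (for FNIP2 its reverse complement). A match of letters is a description of the sequence and not a measured site.
FNIP1, first motif base at -175 from the start, chr5:131797175-131797204: ccccgcccctgcCACGTGacgggacccgcc
FNIP1, first motif base at -94 from the start, chr5:131797094-131797123: tccgcgcgccgcCACGTGatgcggcccccc
RRAGC, first motif base at -112 from the start, chr1:38859867-38859896: aggtgattccggCACGTGacggggcaccac
FNIP2, first motif base at -142 from the second start, chr4:158805685-158805714: ctgacactggctCACATGAgagccattaag
RRAGB, which overlapped between the groups, had 3 E-boxes in its window, and the 1 at -25 from the start lay within TCACGTGA, chrX:55717712-55717741: ggtagcggcagtCACGTGacagactccggg

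The genes around the members were described through 7 lists, with 129 of 140 different genes tested, of which 9 were called higher and 64 lower. Over all protein-coding genes tested, for comparison, 15.2% were called higher and 31.6% lower. The median log2 fold change of the protein-coding genes tested was -0.15, and the list medians are to be read beside it and beside the medians by span. With library size alone as the scaling 38 listed genes were called higher and 27 lower, and with all uniquely aligned reads 3 and 85. The split moved with the scaling for every list.

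Ragulator is the lysosomal scaffold that holds the Rag pair, and SLC38A9 is its arginine sensor. Of the 7 genes in the list with RRAGB, 4 fell and none rose, with a median log2 fold change of -0.43. The 4 were LAMTOR1, LAMTOR2, LAMTOR4 and LAMTOR5, while LAMTOR3 (log2 fold change 0.072, adjusted p = 0.849) and SLC38A9 (0.016, adjusted p = 0.961) overlapped between the groups. LAMTOR4 had 5653, 7310 and 5427 normalized counts in EV libraries and 958, 1703 and 1100 in PRL3 libraries (log2 fold change -2.29, SE 0.22, adjusted p = 1.20e-05). LAMTOR2 had 2987, 3307 and 3182 in EV libraries and 873, 1248 and 1082 in PRL3 libraries (log2 fold change -1.56, SE 0.17, adjusted p = 1.79e-05). Scaling by library size alone gave 3 that fell and 1 that rose.

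The GATOR complexes and the amino acid sensors set the nucleotide state of RagA and RagB. Of the 17 genes, 7 fell and 2 rose, with a median of -0.13. The 2 that fell most were KPTN, of the KICSTOR complex (log2 fold change -1.33, SE 0.23, adjusted p = 0.000415), and NPRL2, of the GATOR1 complex (-1.27, SE 0.17, adjusted p = 8.48e-05). The 2 that rose were ITFG2, also of KICSTOR (0.73, SE 0.14, adjusted p = 0.0012), and DEPDC5, also of GATOR1 (0.51, SE 0.18, adjusted p = 0.0332). Subunits of the same complex therefore lay on both sides of 0 with TMM scaling, and the list turned to 2 lower and 7 higher with library size alone and to 9 lower and 0 higher with all uniquely aligned reads.

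Of 9 genes of mTORC1, the TSC complex and RHEB, 5 fell and none rose, with a median of -0.48. The 5 were MLST8, AKT1S1, DEPTOR, RHEB and TSC2. MLST8, a subunit of mTORC1, had 4629, 6107 and 4869 normalized counts in EV libraries and 1676, 2159 and 1885 in PRL3 libraries (log2 fold change -1.45, SE 0.17, adjusted p = 2.61e-05). DEPTOR, an inhibitor of mTOR, had a log2 fold change of -0.94 (SE 0.32, adjusted p = 0.0318). The kinase gene MTOR itself was at 0.10 (SE 0.15, adjusted p = 0.62) and RPTOR, which encodes the subunit that recruits substrates, at 0.26 (SE 0.15, adjusted p = 0.194), both named after their values were seen. Under library size alone 2 fell and 2 rose.

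The 24 genes whose products modify or carry the factors include the calcineurin subunits, the 14-3-3 proteins that retain the phosphorylated factors in the cytoplasm, GSK3 and AMPK. Of these, 10 fell and 2 rose, with a median of -0.29. The 14-3-3 genes YWHAQ (log2 fold change -1.55, SE 0.18, adjusted p = 2.95e-05) and YWHAE (-1.45, SE 0.16, adjusted p = 2.47e-05) fell most. YWHAE had 34415, 28424 and 23934 normalized counts in EV libraries and 10333, 10498 and 10967 in PRL3 libraries. The 2 that rose were the AMPK beta subunits PRKAB1 (0.71, SE 0.15, adjusted p = 0.00159) and PRKAB2 (0.57, SE 0.17, adjusted p = 0.0137). This became 4 lower and 8 higher with library size alone, and with all uniquely aligned reads 14 fell and 0 rose.

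Lysosomal and autophagy genes described as targets of the factors were lower or not called. Of 39 tested, 26 fell and none rose, with a median of -0.64 beside -0.15 for protein-coding genes, and 32 had a log2 fold change below 0. CTSF, a cathepsin, had 1062, 1302 and 947 normalized counts in EV libraries and 202, 241 and 233 in PRL3 libraries (log2 fold change -2.29, SE 0.20, adjusted p = 9.47e-06). PSAP, the precursor of the saposins, had 22170, 26083 and 19484 in EV libraries and 5438, 7589 and 6377 in PRL3 libraries (log2 fold change -1.80, SE 0.18, adjusted p = 1.29e-05). The fall was thus 4.89-fold for CTSF and 3.49-fold for PSAP. The counts were 13 lower and 7 higher with library size alone.

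Of 28 genes of pigment cells or melanoma described as MITF targets, 19 were tested, and 6 fell and 1 rose, with a median of -0.54. The 9 that were too low to test were TYR, TYRP1, DCT, MLANA, TRPM1, SLC24A5, CAPN3, KIT and IRF4, most of them melanin or melanosome genes. APEX1, which encodes a DNA repair enzyme, had 10437, 10576 and 8819 normalized counts in EV libraries and 4002, 4632 and 3649 in PRL3 libraries (log2 fold change -1.28, SE 0.15, adjusted p = 3.58e-05). EDNRB, the endothelin receptor of melanocytes, had a log2 fold change of -0.83 (SE 0.21, adjusted p = 0.0066). BCL2A1, an anti-apoptotic gene, had 0, 0 and 1 reads in EV libraries and 33, 30 and 29 in PRL3 libraries and was called higher (adjusted p = 0.00118). It passed the filter on low counts only through the PRL3 libraries, and with at least 10 counts in every library no gene of the list was higher. On library size alone 1 fell and 6 rose.

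Of 16 regulators of MITF tested, 7 fell and 4 rose, with a median of -0.017. SOX9 (log2 fold change -2.08, SE 0.31, adjusted p = 0.000182) and HINT1 (-1.83, SE 0.19, adjusted p = 1.52e-05) fell most. The 4 that rose were ZEB2, TCF4, PAX3 and POU3F2. ZEB2, a zinc finger factor of differentiated melanocytes, had 3158, 2440 and 3476 normalized counts in EV libraries and 9437, 8848 and 9603 in PRL3 libraries (log2 fold change 1.62, SE 0.16, adjusted p = 1.45e-05). TCF4 had a log2 fold change of 1.39 (SE 0.18, adjusted p = 4.84e-05). SOX10 and PAX3, which both activate the melanocyte promoter of MITF, went in opposite directions (SOX10 -0.85, adjusted p = 0.00213; PAX3 0.67, adjusted p = 0.0035). The split was 2 lower and 8 higher with library size alone.

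**Figure D5:**
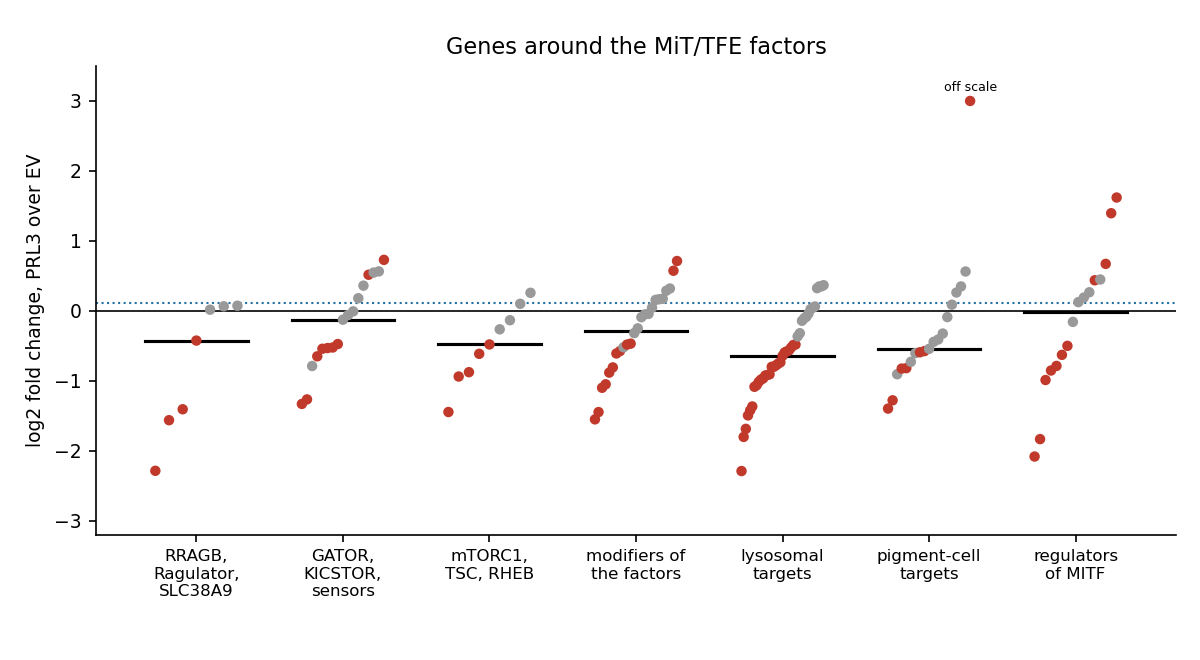
Each point is the log2 fold change of PRL3 over EV (TMM scaling) of 1 gene tested in the 7 lists around the members, red where the adjusted p was under 0.05 and grey otherwise, with a black bar at the median of each list and a dotted line at the median of all genes, 0.11. The medians run from -0.64 for the lysosomal targets to -0.017 for the regulators of MITF, and 1 point, BCL2A1, is drawn at the upper edge because it is off scale.

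The genes whose log2 CPM over the 6 libraries were most like those of a member were looked up for MITF, TFE3, TFEB and RRAGD. For MITF they were SRP19, ZNF24 and RIOX2, with Pearson r of 0.998 to 0.999 across 6 libraries. For TFE3 they were ADGRL1, SORCS1 and FNDC10, with r of 0.999 for each. For TFEB they were LRRC63, SH3BGR and HCST, with r of 0.991 to 0.995, and none of these 3 was called. For RRAGD they were MRPL53, WFDC3 and PIGX, with r of 0.996 to 0.999. These are the closest of all protein-coding genes tested over 6 libraries in 2 groups, and the search took the highest values, so they are given as a description.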

How the data were processed

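The 6 libraries hold nascent RNA from 4sU-seq. Per the labels and the study's methods, reads were aligned to GRCh38 by STAR 2.5.1b, and the authors deposited raw read counts per Ensembl release 91 gene from htseq-count 0.6.1, run with the reverse-strand setting. Symbols, spans and exons came from GENCODE release 44 on the same build.

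Groups were tested with edgeR 4.0.16 under R 4.3.3 (TMM, filterByExpr, quasi-likelihood test, Benjamini-Hochberg adjustment over 23884 genes, threshold 0.05). Standard errors were taken from the F statistic. DESeq2 1.42.0 and limma 3.58.1 were alternatives. Depth was 36532207 to 57952035 gene reads per library. Exact permutation tests (3 against 3) cannot go below 0.1.

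Members and lists were chosen with earlier results of these data known. Named besides the members were RRAGB, PTP4A3, the 2 largest falls and 2 largest rises past the threshold without overlap in each list, counted overlapping genes, and the 3 genes most like MITF, TFEB, TFE3 and RRAGD. Lists of 5 or fewer called genes, MTOR, RPTOR, LAMTOR3, SLC38A9, SOX10 and the untested pigment genes were named after their values were seen. The same holds for the single markers given beside their sums. Sequences are from RefSeq (GRCh38.p14). Protein sequences were not used here.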

Additional observations from a re-analysis of the deposited data

How the results depend on the processing

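No paired analysis was possible because EV and PRL3 libraries have no replicate number in common. RRAGA was called lower in all 15 alternatives. The number of members called lower was 2 with upper-quartile scaling, without the low-count filter, with protein-coding genes only and at an adjusted p of 0.01, and 1 with library size alone. The number called higher was 0 with all uniquely aligned reads and 1 at 0.01. With single libraries left out, these numbers ran from 2 to 4 lower and from 1 to 3 higher.

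With library size alone, log2 fold changes were 0.85 for MITF and 0.55 for RRAGB (both called), and 0.36 for TFEB, 0.069 for TFEC, -0.24 for TFE3, -0.22 for RRAGC and -0.18 for RRAGD (none called). With upper-quartile scaling they were 0.55 for MITF (called), 0.034 for TFEB, -0.53 for RRAGC and -0.50 for RRAGD. With protein-coding genes only they were 0.54 for MITF (called), 0.046 for TFEB, -0.53 for RRAGC and -0.50 for RRAGD. With all uniquely aligned reads they were -0.11 for MITF, 0.050 for FLCN, 0.34 for FNIP1, 0.16 for FNIP2 and -0.40 for RRAGB. Without the low-count filter RRAGC was at -0.68 and RRAGD at -0.66. With at least 10 counts in every library MITF was at 0.41 (called) and RRAGD at -0.64, and limma-voom gave RRAGD -0.62. The cause was not tested.

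With 1 library left out, the log2 fold change ran from 0.29 to 0.43 for MITF, -0.37 to 0.20 for TFEB, -0.74 to -0.047 for TFEC, 0.41 to 0.73 for FLCN, 0.51 to 0.72 for FNIP2, -0.81 to -0.54 for RRAGC, -0.89 to -0.45 for RRAGD and -0.052 to 0.22 for RRAGB. The TFEC share difference ran from -0.099 to 0.071 percentage points and the log2 ratio difference of RRAGD to RRAGC from -0.14 to 0.18. Of the genes in the 7 lists, the higher ones numbered 38 (library size alone, with 27 lower), 21 (protein-coding genes only), 19 (upper-quartile scaling), 3 (all uniquely aligned reads) and 7 to 15 (without 1 library). Levels in EV with the longest transcript as the length moved by more than 1 SD for most members. TPM is another unit, so its values are not set against the SD. Within a library TPM orders genes as the level per kilobase does. The same order of the members in EV under TPM is therefore no check of it. TFEC had only 10 to 33 reads per library. TFEB varied from 54 to 119 reads among EV libraries.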
